A study of Mus musculus with 3 samples.

Results

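The windows described here were the 16 RUNX3 windows, of 1000 in the peak list used, that lay at 4 loci with 4 windows each. They were the windows for which Plec1, Tomm20, Tfb1m or 2010111I01Rik was deposited as the nearest gene. Among the deposited genes, Tiam2 and Fancc had the nearest start sites of 5 of these windows and are described with them. A further 2 windows had Tomm20 only as a neighbouring gene, so 18 windows of this list carried one of these 6 genes in a deposited table. The loci were chosen by their number of windows, so this number and the genes assigned to the windows are given as a description and were not tested.

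Chromatin immunoprecipitation sequencing (ChIP-seq) was performed to locate the regions associated with Runx3 in superficial zone (SFZ) chondrocytes, which line articular cartilage at the joint surface. All cells were of C57BL/6 mice per the labels (C57BL/6J in the methods, which isolated cells at 5 days of age), and had been transfected by lipofection with a vector for 3xFLAG-tagged Runx3, so the libraries report a tagged protein made from a vector, and the controls carried it too. There were 3 libraries, 1 per group: chromatin precipitated with an anti-FLAG antibody (RUNX3-FLAG), chromatin precipitated with anti-mouse IgG (IgG), and chromatin without precipitation (input). The deposited tables held 2 peak lists of the RUNX3-FLAG library, each of 1000 windows of 101 bp in order of rank. One is called the main list, and the other, whose name adds IgG and whose control was not stated, is called the IgG-named list. Both lists end at rank 1000. The paper reported more Runx3 peaks than a list holds, without saying how many were called for each list. A window absent from a list may therefore have been called with a later rank. No read count, peak height or P value per window was used here and the depth was unknown, so a rank is the only measure of strength. Expression was not measured in these files, so neither the markers of SFZ cells nor a response of any gene could be examined. There were no replicates, so no error between them can be given.

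Runx3 is a transcription factor with a Runt domain, which binds DNA together with its partner Cbfb at short sites of the form TGTGGT or TGCGGT. Sites lie at promoters and also far from them, and the position of a site does not by itself name the gene it acts on. A peak table therefore depends on how a gene is assigned to a peak, by its transcription start site (TSS), its 3′ end or its body.

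Of the 6 genes, Plec1 (Plec in current nomenclature) encodes plectin, which links intermediate filaments to other parts of the cytoskeleton and to adhesion sites. Tiam2 encodes an exchange factor for the GTPase Rac. Tfb1m encodes the methyltransferase that modifies the small ribosomal RNA of mitochondria, and Tomm20 encodes a receptor of the outer mitochondrial membrane for imported proteins. The gene 2010111I01Rik (Aopep in current nomenclature) encodes a zinc aminopeptidase, and Fancc encodes a subunit of the Fanconi anaemia core complex for repair of DNA crosslinks.

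To show what lay under the windows, 1 sequence with and 1 without the Runx motif is given for the Tomm20 and Tfb1m loci, and 2 with it for each of the other loci. They are from the plus strand of mouse genome mm9, and capitals mark Runx motif matches on either strand. The motif was taken as TGTGGT or TGTGGC and, with C as the third letter, as TGCGGT or TGCGGC. For rank 562 only bases 55 to 84 are shown.
Plec1, rank 45, chr15:76027098-76027198: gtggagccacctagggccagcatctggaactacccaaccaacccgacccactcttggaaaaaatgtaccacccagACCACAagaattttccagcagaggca
Plec1, rank 575, chr15:76037874-76037974: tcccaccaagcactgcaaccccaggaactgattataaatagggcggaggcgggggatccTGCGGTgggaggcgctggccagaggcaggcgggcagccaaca
Tomm20, rank 508, chr8:129363629-129363729: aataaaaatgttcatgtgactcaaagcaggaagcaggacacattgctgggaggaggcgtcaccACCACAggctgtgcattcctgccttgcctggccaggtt
Tomm20, rank 824, chr8:129405953-129406053: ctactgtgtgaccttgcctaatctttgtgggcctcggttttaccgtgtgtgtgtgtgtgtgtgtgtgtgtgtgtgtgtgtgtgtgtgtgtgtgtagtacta
Tfb1m, rank 562, chr17:3114965-3114994: ccatattggatGCCGCAgccgccgcggtca
Tfb1m, rank 923, chr17:3396915-3397015: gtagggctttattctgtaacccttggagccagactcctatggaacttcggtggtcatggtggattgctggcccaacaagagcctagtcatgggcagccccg
2010111I01Rik, rank 506, chr13:63210105-63210205: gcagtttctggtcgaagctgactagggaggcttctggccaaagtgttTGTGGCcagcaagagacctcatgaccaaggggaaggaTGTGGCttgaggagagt
2010111I01Rik, rank 814, chr13:63355349-63355449: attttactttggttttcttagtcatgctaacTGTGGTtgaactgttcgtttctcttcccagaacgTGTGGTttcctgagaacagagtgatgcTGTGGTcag

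How unusual 4 windows at a gene were in the list was described first. The main list named 897 genes as nearest, of which 815 had 1 window, 67 had 2, 10 had 3, 4 had 4 and 1 had 5. Genes with 4 or more windows thus made up 0.557% of the genes named, and the gene with 5 windows was Mid1, a ubiquitin ligase gene on the X chromosome. The 10 genes just below, with 3 windows each, were 1700120B06Rik, 2410131K14Rik, Cuedc1, Gins2, Gm1968, Lsm14a, Runx1, Tle1, Tsc22d1 and Xylt1. Runx1 is itself a Runx family member, and Tle1 encodes a corepressor that binds Runx proteins. In the IgG-named list Gins2 reached 4 windows, 2010111I01Rik had 3 and Mid1 had 4, and Plec1, Tomm20 and Tfb1m each had 4.

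When windows were assigned by the nearest deposited TSS, Plec1 and Tomm20 stayed at 4 windows. Tiam2 went from 0 to 4 and Tfb1m from 4 to 0, while 2010111I01Rik had 3 and Fancc had 1. For 11 of the 16 windows (68.8%) the gene deposited as nearest also had the nearest deposited TSS, against 62.3% of all windows of the list, and for the other 5 it did not, against 37.7%. Only the deposited genes listed for each window were then compared by their 3′ ends. Among them, the gene deposited as nearest had the closest 3′ end for 16 of 16 windows here. The same held for 1000 of 1000 in the list (100%), so the deposited assignment followed the 3′ ends of deposited genes.

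**Figure D1:**
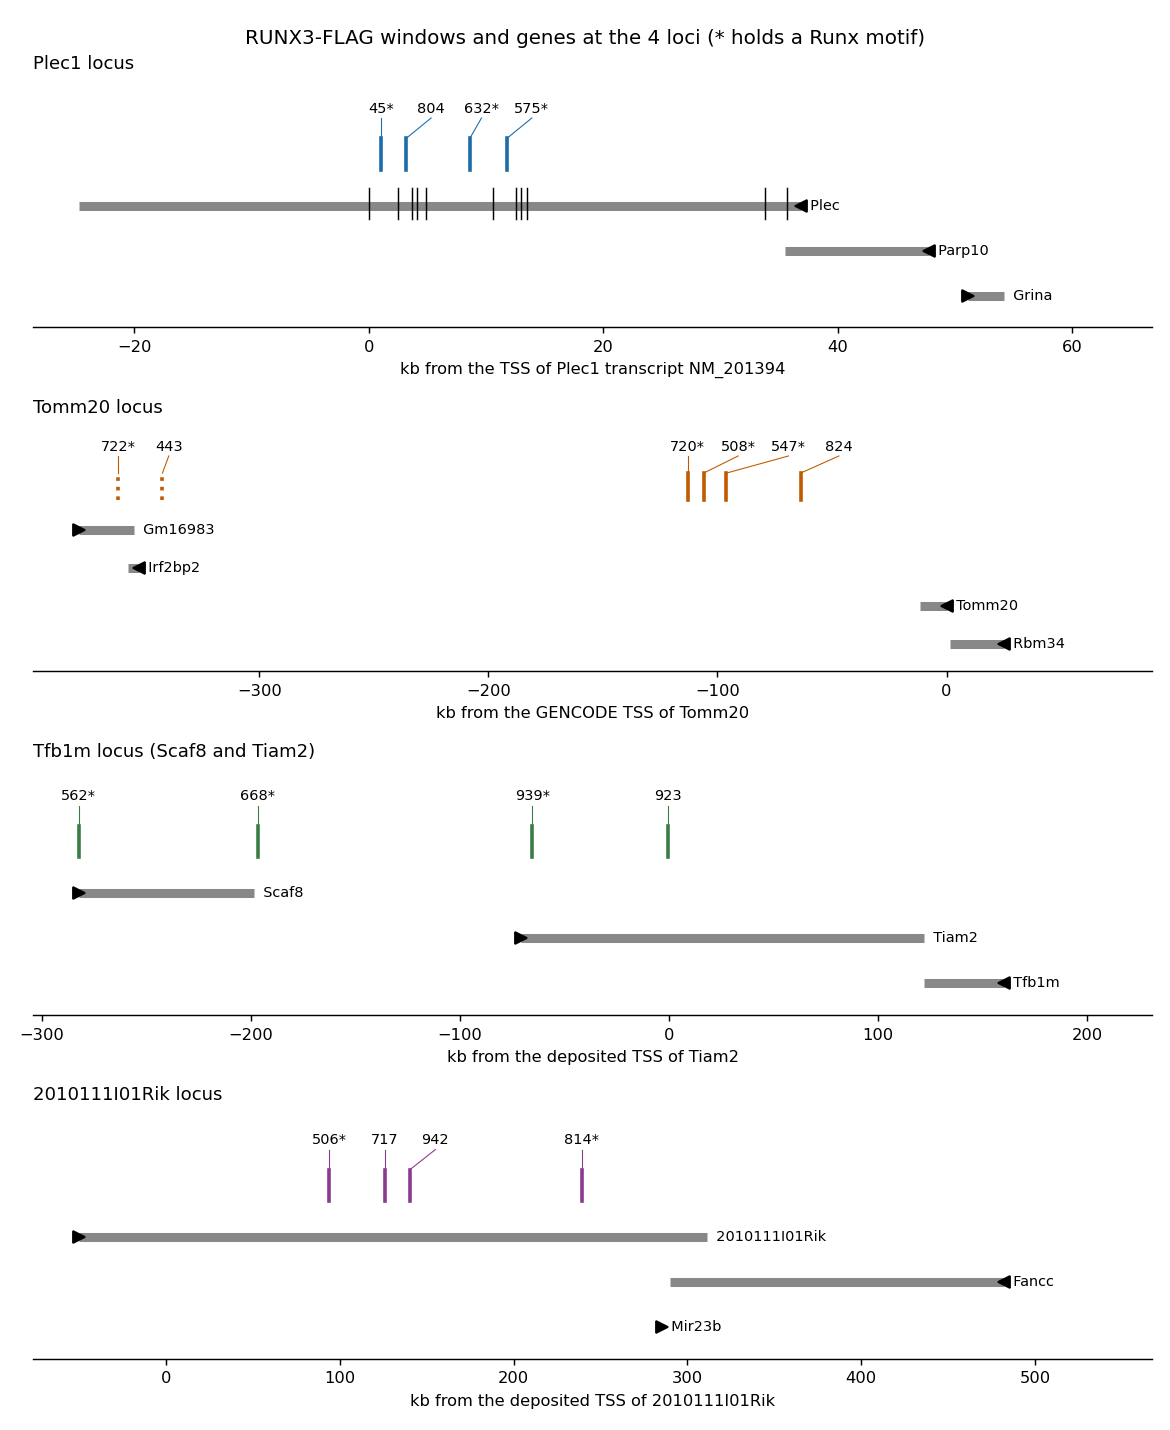
Windows of the main list (coloured ticks, labelled with their rank, an asterisk marking a Runx motif) and GENCODE genes (grey bars, an arrowhead at the 5′ end pointing in the direction of transcription) at the 4 loci, in kb from the start site named under each panel. Black ticks on Plec are its 11 deposited start sites, and dotted ticks are the 2 windows that had Tomm20 only as a neighbouring gene. The Plec1 windows lie within 10.8 kb among the start sites of the gene, whereas those of the Tfb1m locus spread over 282 kb, with 562 at the start of Scaf8 and 923 at a start site of Tiam2.

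The spacing of windows differed between the loci by more than an order of magnitude. Measured between window centres, the 4 windows spanned 10.8 kb at Plec1, 49.3 kb at Tomm20, 145 kb at 2010111I01Rik and 282 kb at Tfb1m. At Plec1 the gaps between neighbouring windows were 2.18, 5.42 and 3.17 kb, the shortest of the 4 loci. Those at Tomm20 were 6.93, 9.94 and 32.4 kb, with 3 windows close together and rank 824 apart. Along 2010111I01Rik they were 32.2, 14.2 and 98.8 kb, and along the Tfb1m locus 85.5, 131 and 65.1 kb. Of these 12 gaps 8 were under 50 kb. Over all 980 gaps of the main list the median was 907 kb, and 10.9% were under 50 kb, but the loci had been chosen for windows that share a gene, which favours short gaps.

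At Plec1 all 4 windows lay in the body of the gene between its many start sites. The deposited table held 11 RefSeq transcripts of Plec1 (gene ID 18810, minus strand of chromosome 15) with 11 different TSSs over 35.7 kb, and GENCODE placed the gene (Plec) at chr15:76001404-76063004. In GENCODE the 4 windows overlapped no exon and lay in introns. In the deposited table the label differed by transcript, so that the same window was upstream of some transcripts and in an intron or in the untranslated region at the start of others.

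The window of rank 45, the highest rank among the 16, was centred 1008 bp upstream of the TSS of NM_201394, the most downstream of the 11. Rank 804 (chr15:76029281-76029381) lay 505 bp downstream of the TSS of NM_201392 and 692 bp upstream of that of NM_201393. Rank 632 (chr15:76034703-76034803) lay 1998 bp downstream of the TSS of NM_201389, and rank 575 lay 759 bp downstream of that of NM_201388. Thus each of the 4 windows had a different Plec1 transcript start as its nearest, and all were 22.0 kb or more from the 2 most upstream TSSs, those of NM_201385 and NM_011117. The GENCODE start sites gave the same 4 distances.

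No other protein-coding gene had a start site as near to the Plec1 windows. The nearest GENCODE TSS of a different one was of Parp10, an ADP-ribosyltransferase gene, at 37.0 kb from rank 45 and 26.2 kb from rank 575. It belonged to a transcript labelled as subject to nonsense-mediated decay, and the 5′ end of Parp10 lay 46.7 and 35.9 kb from these windows. Grina, which encodes a transmembrane protein of the TMBIM family, started 50.1 and 39.3 kb away from the same windows. Start sites of Spatc1, BC024139 and Gm10345 lay within 100 kb of all 4 windows, and that of Oplah within 100 kb of 3. Those of BC024139 and Oplah were of transcripts without a protein-coding label.

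The surroundings of Plec1 held more windows than those of the other loci. Within 500 kb of the middle of the locus there were 9 windows of the main list. Beside the 4 at Plec1 these were rank 28 at 0.156 kb from the TSS of Scrt1, rank 85 at 0.019 kb from that of Zfp623, rank 387 at 1.0 kb from that of Scx, rank 697 at 0.121 kb from that of Exosc4, and rank 563, deposited with Gsdmd. Scx encodes scleraxis, a transcription factor of tendon and ligament cells. The nearest of these, rank 697, was 120 kb away from a Plec1 window. In the same reach there were 6 windows at Tomm20, and 4, those of the locus itself, at Tfb1m and at 2010111I01Rik.

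At Tomm20 the 4 windows lay downstream of the gene and outside annotated genes. Tomm20 (gene ID 67952) is on the minus strand at chr8:129458043-129469723 in GENCODE. From its deposited TSS, rank 720 (chr8:129356700-129356800) was 113 kb away, rank 508 was 106 kb away, rank 547 (chr8:129373565-129373665) was 96.1 kb away and rank 824 was 63.7 kb away. The 3′ end of Tomm20 lay between 52.4 and 102 kb from the 4 windows. None overlapped a coding or noncoding GENCODE gene, and Tomm20 had the nearest TSS for all 4 in both annotations. The only other TSS of a protein-coding gene within 100 kb of any of them was that of Rbm34, an RNA-binding protein gene, at 89.0 kb from rank 824.

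The 2 windows that had Tomm20 only as a neighbour lay on either side of a gene that was not among the deposited genes. Rank 443 (chr8:129127317-129127417) was 10031 bp upstream and rank 722 (chr8:129108081-129108181) was 9.21 kb downstream of the GENCODE TSS of Irf2bp2, which encodes a transcriptional corepressor. Irf2bp2 lies at chr8:129112196-129117336 on the minus strand. In the deposited table the nearest gene of both was 1810063B05Rik, whose TSS was 181 kb from rank 443 and 162 kb from rank 722. Rank 722 overlapped the long noncoding RNA gene Gm16983. Irf2bp2 and Tomm20 were the protein-coding genes on either side of the 4 Tomm20 windows, and the TSS of Irf2bp2 was 239 kb from rank 720 and 289 kb from rank 824.

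At the Tfb1m locus no window had Tfb1m as the gene with the nearest TSS. Tfb1m (gene ID 224481) and Tiam2 (gene ID 24001) are transcribed toward each other on chromosome 17, and their deposited 3′ ends are close together, that of Tfb1m being 141 bp nearer to each window. The TSS of Tfb1m lay 443, 357, 226 and 161 kb from ranks 562, 668, 939 and 923. The deposited TSS of Tiam2 (NM_011878) lay 282, 197, 65.3 and 0.242 kb from the same windows. Rank 923 was the only one of the 4 near a deposited start site, 242 bp upstream of that TSS, and it held no Runx motif.

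With GENCODE the 4 windows fell to a pair of genes, Scaf8 and Tiam2, with 2 windows each. Scaf8, which encodes a factor that binds the tail of RNA polymerase II, lies at chr17:3114972-3198855 on the plus strand and was not among the deposited genes. Rank 562 (chr17:3114911-3115011) spanned its TSS, which was base 62 of the window and 11 bp from its centre. The Runx match of this window started 4 bases past the TSS, in the untranslated region of the first exon. Rank 668 (chr17:3200409-3200509) lay 85.5 kb downstream of the TSS of Scaf8 and 1.6 kb past its 3′ end. GENCODE starts Tiam2 at base 3326573, upstream of the deposited TSS, which puts rank 939 (chr17:3331845-3331945) 5.32 kb inside the gene and rank 923 in an intron of it.

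At 2010111I01Rik all 4 windows lay in introns of the gene. The gene (gene ID 72061, plus strand of chromosome 13) reached from base 63116294 to 63400964 in the deposited table and from 63066253 to 63427404 in GENCODE, where its end overlaps that of Fancc on the opposite strand. From the deposited TSS, rank 506 was 93.9 kb away, rank 717 (chr13:63242308-63242408) was 126 kb away, rank 942 (chr13:63256538-63256638) was 140 kb away and rank 814 was 239 kb away. All 4 were therefore deep inside the gene and far from its start.

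In the main list Fancc had the nearest deposited TSS only for rank 814, at 178 kb. In GENCODE that window was nearest to a shorter transcript of 2010111I01Rik, whose TSS lay 19.2 kb downstream of it, and the closest Fancc transcript, a noncoding one, started 63.3 kb away. The same shorter transcript was the nearest to rank 942, at 118 kb. The microRNA genes Mir23b and Mir27b, inside the annotated span of 2010111I01Rik, started 46.4 and 46.6 kb downstream of rank 814. Ptch1, which encodes the receptor of hedgehog ligands and lies beyond Fancc, began 319 kb from rank 814 in GENCODE.

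A window at the start of Fancc was present in the IgG-named list alone. This window, rank 625 there (chr13:63532913-63533013), was centred 90 bp downstream of the deposited TSS of Fancc and 28 bp downstream of a GENCODE one, and it overlapped an untranslated region of Fancc. It held 2 Runx matches and 1 GC box, and its deposited nearest gene was Ptch1. The closest window of the main list was rank 814, 177564 bp away. By the nearest deposited TSS, Fancc thus had 1 window in the main list and 2 in the IgG-named list, and 2010111I01Rik had 3 and 2.

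**Figure D2:**
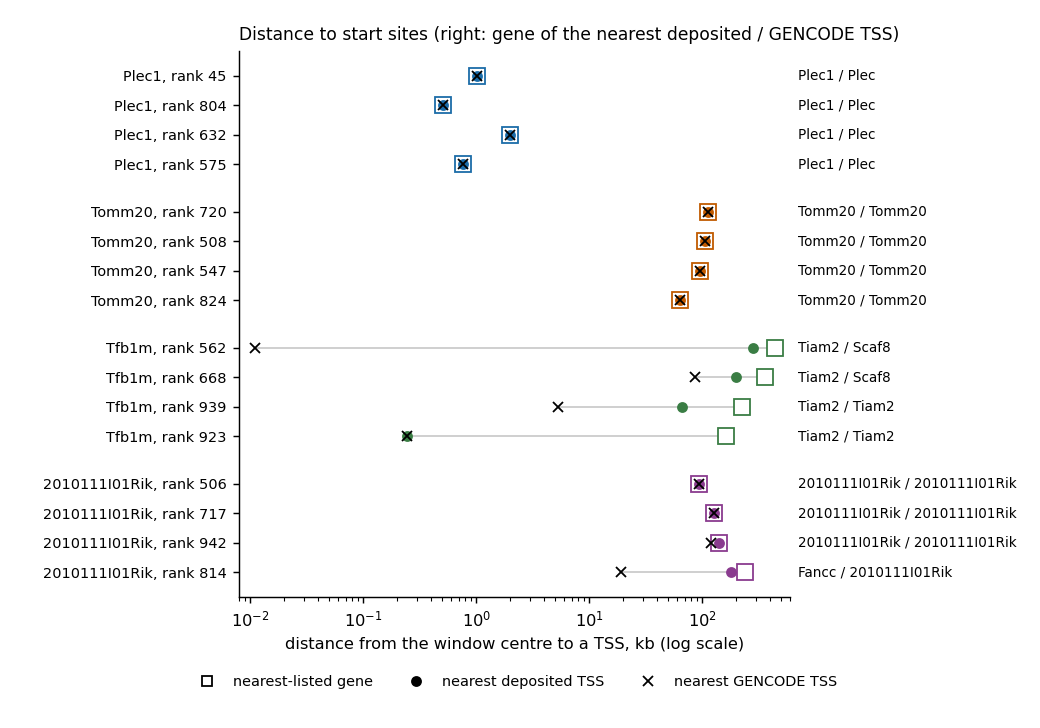
Distance from the centre of each of the 16 windows to the TSS of the gene deposited as nearest (open squares), to the nearest deposited TSS (filled circles) and to the nearest GENCODE TSS (crosses), in kb on a log axis, with the genes of the last 2 at the right. The 3 marks coincide for the 4 Plec1 and the 4 Tomm20 windows, and at the Tfb1m locus rank 562 moves from 443 kb to 0.011 kb.

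Over the 16 windows, 5 lay within 5 kb of a deposited TSS (31.2%), against 36.5% of all windows, and 6 lay within 5 kb of a GENCODE TSS (37.5%), against 44.2%. The median distance to the nearest deposited TSS was 94988 bp for the 16 and 19.0 kb for the list, and with GENCODE it was 41.4 and 8.27 kb. The loci had been chosen by their number of windows, and what this choice did to the distances was not tested. The distances were of 2 kinds, with the 4 Plec1 windows and rank 923 at 2.0 kb or less and the other 11 at 63.7 kb or more from a deposited TSS. A GENCODE TSS lay over 1 kb nearer than any deposited TSS for 5 of 16 windows (31.2%), ranks 562, 668, 939, 814 and 942, against 33.5% of the list. By location in GENCODE, 10 windows were in introns, 5 were outside genes, 1 was in an untranslated region and 0 were in coding exons. The shares of the list by GENCODE location were not counted, so these counts have no background. The centres of 8 of 16 were inside a deposited gene, against 37.5% in the list.

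The ranks of the 16 windows were mostly in the later part of the list. The best was 45, the next best 506, the median 692.5 and the worst 942, and 15 of 16 came after rank 500, which 50% of the list do by definition. Rank 45 at Plec1 thus stood apart from the other 3 windows of its locus, at 575, 632 and 804. The ranks at Tomm20 were 508, 547, 720 and 824, those at 2010111I01Rik were 506, 717, 814 and 942, and those at the Tfb1m locus were 562, 668, 923 and 939. The ranges of the last 3 loci overlapped.

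**Figure D3:**
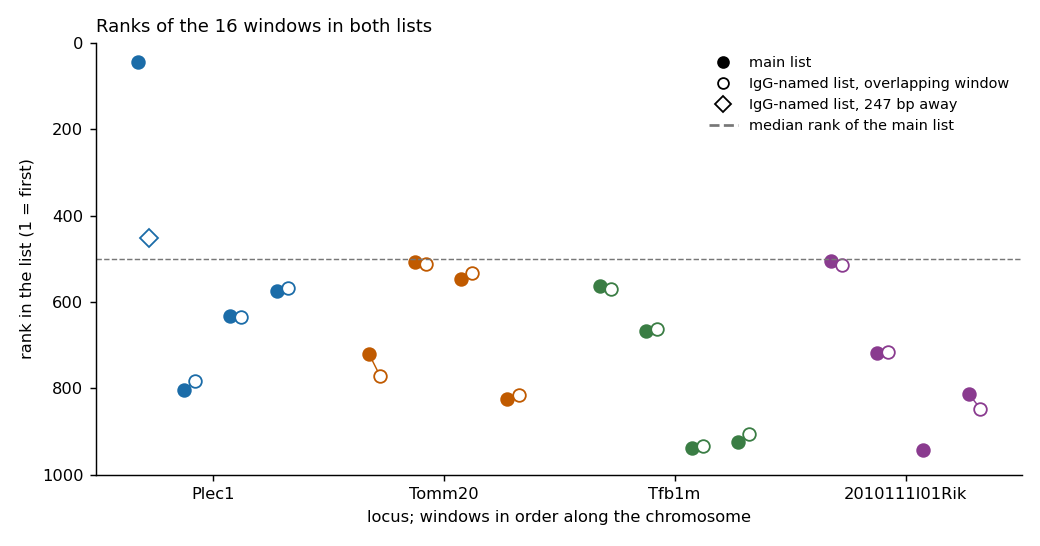
Rank of each window in the main list (filled circles) and of the window that overlaps it in the IgG-named list (open circles), by locus and in order along the chromosome; the axis runs from rank 1 at the top. The diamond is the IgG-named window 247 bp from rank 45, and rank 942 has no partner. All plotted windows but rank 45 and the diamond, rank 451, lie below the dashed line, the median rank of the main list at 500.5.

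The same windows were then looked up in the IgG-named list, which comes from the same RUNX3-FLAG library and is no independent replicate. Of the 16 windows 14 (87.5%) overlapped a window of that list by 1 bp or more, against 91.2% of the main list, and 11 (68.8%) were identical, against 70.4%. The other 3 shared windows, ranks 720, 547 and 923, were shifted by 5, 1 and 4 bp. Ranks in the other list were close for most windows, for example 513 for rank 508, 570 for rank 562 and 934 for rank 939. The widest step among shared windows was at rank 720, which was 771 there.

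The 2 windows without a partner were rank 45 at Plec1 and rank 942 at 2010111I01Rik. The closest window of the IgG-named list to rank 45 was centred 247 bp away, at chr15:76026851-76026951, with rank 451. This window lay 761 bp upstream of the same Plec1 TSS and held no Runx match, but it held an AP-1 match. The best rank of the 4 loci was therefore 45 in the main list and 451 in the IgG-named list. For rank 942 the closest window was 14.2 kb away, and 2010111I01Rik had 3 windows in the IgG-named list.

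The Runx motif was present in 11 of the 16 windows (68.8%, Wilson 95% interval 44.4 to 85.8). In the whole list 66.1% of windows held it, and it was found in 16.1% of 2000 windows of the same length 500 bp to either side. In the flanks of these 16 windows themselves, 3 of 32 held it. The share at the 4 loci was thus near that of the list and above that of the flanks, without a test. The motif was in 3 of 4 windows at Plec1, Tomm20 and the Tfb1m locus and in 2 of 4 at 2010111I01Rik.

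Among 14 matches, 8 were TGTGGT, 3 were TGTGGC, 1 was TGCGGT and 2 were TGCGGC. Of the 14, 11 lay within 25 bp of the window centre, a share that was not counted for the list. The 2 TGCGGC matches were both at the Tfb1m locus, in ranks 562 and 668, and the TGCGGT match was in rank 575 at Plec1. More than 1 match occurred in 2 windows, both at 2010111I01Rik. Rank 814 had 3 TGTGGT on the same strand, and rank 506 had 2 TGTGGC on the same strand. Windows with 2 or more matches made up 19.6% of the list.

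The 5 windows without the motif were ranks 804, 824, 923, 717 and 942. With 100 bp more to each side, 14 of the 16 windows held a match, and ranks 717 and 824 did not. The longer stretch gives more room for a match, and the share of the list at this length was not counted.

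**Figure D4:**
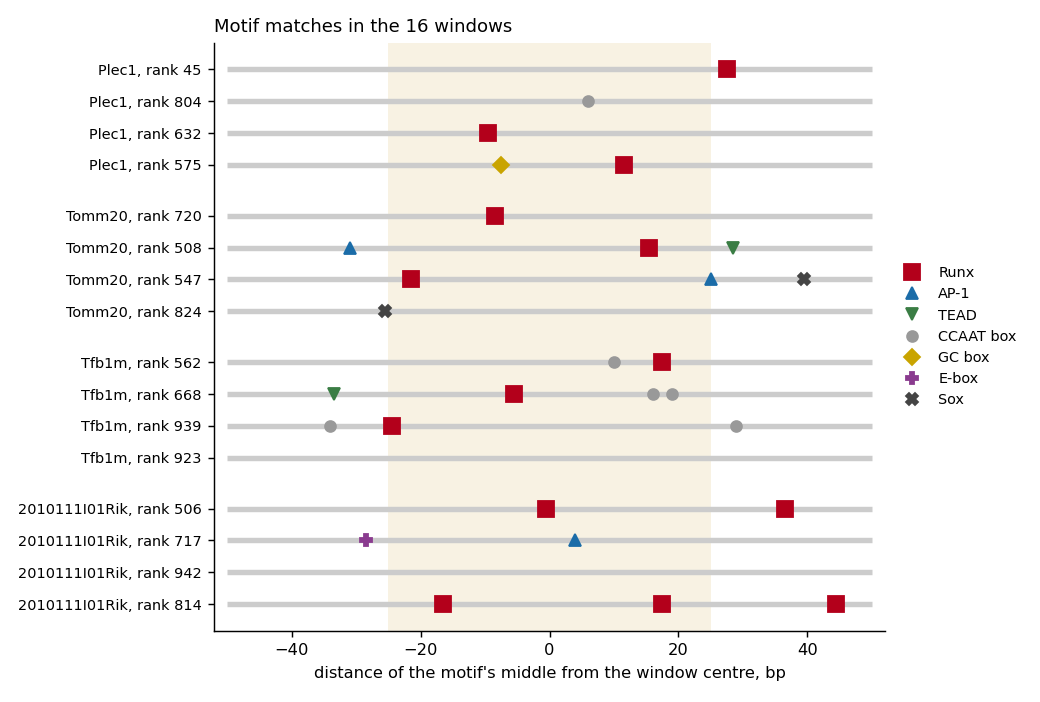
Position of each motif match, as the distance of its middle from the window centre in bp, in the 16 windows of 101 bp (grey bars) ordered by locus and position. Red squares are Runx matches, 11 of 14 of them inside the shaded 25 bp on either side of the centre. This share was not counted for the list. Ranks 923 and 942 hold none of the motifs searched.

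Words bound by other transcription factors were counted on both strands in the same way. AP-1 words, TGACTCA or TGAGTCA, were in 3 of 16 windows (18.8%, Wilson 95% interval 6.59 to 43.0), against 9.1% of the list and 1.8% of the flanks. These were ranks 508 and 547 at Tomm20, which also held a Runx match, and rank 717 at 2010111I01Rik, which did not. The TEAD word GGAATG was in ranks 508 and 668 (12.5%, against 11.6% of the list). The CCAAT box, the 5 letters CCAAT, was in 4 of 16 windows (against 11.7% of the list and 12.8% of the flanks), 3 of them at the Tfb1m locus. Sox words, ACAATG or ACAAAG, were in ranks 547 and 824 (12.5%, against 9.2%). The E-box CACGTG was in rank 717 (6.25%, against 2.7%), the GC box GGGCGG in rank 575 (6.25%, against 13.8%), and the ETS word CCGGAA was in 0 of 16, against 7.7% of the list. With 16 windows the intervals of these shares are wide, and all of them include the share of the list. The intervals treat the windows as independent although these come from 4 chosen loci, so they are no test.

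The base composition and uniqueness of the sequences were described last. The GC content of the windows was lowest in rank 720 at Tomm20, 40.6%, and highest in rank 562 at the Scaf8 start, 75.2%, with a median of 53.0% against 54.5% for the list. Rank 562 also held 17 CpG dinucleotides, and no other window of the 16 held more than 5. In 15 of 16 windows (93.8%) every 31-mer occurred once in the genome, against 95.2% of the list. No window of the 16 was mostly (over 50%) of 31-mers that occur more than once, against 0.5% of the list. The one with any was rank 824 at Tomm20, in which 35 of 71 31-mers (49.3%) occurred more than once, just under the limit of 50%. The most frequent of these 31-mers occurred 1129996 times in the genome. Rank 824 contained a run of 50 bp of alternating G and T, the long gt stretch of the sequence above. Such a run of at least 40 bp was held by 9 of the 1000 windows of the list. Without that window, 3 windows over 16.9 kb remained at Tomm20, each with a Runx match.

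Genes related to the 6 genes by family or function were counted among the genes with windows in the main list. By the nearest GENCODE TSS, 901 of 22238 protein-coding genes (4.05%) had at least 1 window, and 813 (3.66%) were deposited as the nearest gene of one. Plec, Tomm20, Tfb1m and 2010111I01Rik had been chosen for their windows. Their presence in the counts below was therefore fixed in advance and is no result about their families. Of 10 plakin and hemidesmosome genes, Plec alone had a nearest TSS, and Cd151 was deposited as nearest to rank 200, which lay 0.174 kb from the TSS of Tspan4. Among 10 intermediate filament partners of plectin, Synm, which encodes synemin, had rank 583 at 5.03 kb from its TSS.

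Of 22 genes listed as exchange factors for Rac, 3 had a window by nearest TSS, namely Tiam2, which was chosen for its windows, Dock3 (rank 264 at 17.1 kb) and Dock9 (rank 809 at 14.4 kb). Dock9 is known as an exchange factor for another GTPase, so its place in the list is doubtful.

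Of 11 genes of mitochondrial transcription and ribosomal RNA, Tfb1m alone was deposited as nearest to a window, and 0 had a nearest TSS. Among 24 genes of mitochondrial protein import, Tomm20 and Mtx1 (rank 995, 0.487 kb upstream) had a nearest TSS, and Timm22 was deposited as nearest to rank 998, which was closer to the TSS of Nxn. Of 11 M1 aminopeptidase genes, 2010111I01Rik and Lnpep (rank 755, 1.07 kb upstream) had windows by both measures. Of 19 Fanconi anaemia genes 0 had the nearest GENCODE TSS of a main-list window, and Fanci, Rad51c and Ube2t were deposited as nearest to windows at 73.8, 44.7 and 60.2 kb from their own TSSs.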

How the data were processed

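ChIP-seq was analysed in SFZ chondrocytes of 3 libraries (RUNX3-FLAG, IgG, input). According to the methods, the authors aligned reads with bowtie to unmasked mm9, called peaks with CisGenome against the input control, and kept those passing their cut-offs for P value and false discovery rate. The deposited columns used are window ranks and positions, gene positions, and distances in bp. Positions, gene ends included, count from 0 with both ends included and are printed counted from 1.

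Member windows were found by gene name. Distances run from the window centre to the deposited TSSs or to those of protein-coding genes in GENCODE vM1 (build NCBIM37, the same as mm9). Each window was paired with at most 1 window of the other list, the nearest by centre. Sequences and motifs were read from the genome, and 31-mers were counted on both strands. Intervals are Wilson 95% intervals and cover counting error only.

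The members, gene lists, printed sequences and comparisons were chosen with earlier results of these data known. Named genes were the 6 members, genes with a TSS within 100 kb of or overlapping a member window, listed family genes with a window, and genes deposited as nearest to 4 or more windows. Genes with 3 windows, the other genes near Plec1, and the genes flanking the Tomm20 and 2010111I01Rik windows were named after their values were seen. The result of 1 gene list is not reported here. No test was run. Motif search, counts of sequence copies, pairing between lists, the sign of distances and the Wilson interval were checked on made-up input with known answers. Deposited TSS distances were recomputed from the deposited positions. The other steps had no such check. Tools were samtools 1.23.1, numba 0.67.0, pysam 0.24.0, pandas 2.3.3, scipy 1.17.1, numpy 2.4.6 and matplotlib 3.10.9 in Python 3.11.15.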

Additional observations from a re-analysis of the deposited data

How the results depend on the processing

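For 25 results (windows per gene, spans, gaps, TSS distances and genes, Runx motif, overlap, uniqueness and ranks) another list, annotation, gene assignment, motif or rank limit was tried, and of 63 values 43 stayed within 1.5 times of the value reported. Among the first 333 ranks Plec1 kept 1 window and Tomm20, Tfb1m and 2010111I01Rik had 0, and the first 500 ranks gave the same counts. Assignment by the nearest deposited TSS gave 4 windows to Tiam2, 1 to Fancc and 0 to Tfb1m. With the nearest GENCODE TSS, added after the data were seen, Tiam2 had 2 and Tfb1m had 0, and Gse1 and Gm17379, named after their values were seen, reached 4. The nearest deposited TSS in the IgG-named list, also added later, gave 4 windows to Tiam2, 2 to 2010111I01Rik, 2 to Fancc and 0 to Tfb1m. The median distance to the nearest TSS moved from 94988 bp to 41.4 kb with GENCODE. With only TGTGGT and TGCGGT, 7 windows held the Runx motif instead of 11, and the share of the list was not counted this way. The smallest gap at 2010111I01Rik was 14.2 kb in the main list and 32.2 kb in the IgG-named list, which lacks rank 942, a comparison added later. Spans, largest gaps, the count of shared windows and the median rank stayed within 1.5 times under the alternatives run for them. Other motif counts, locations, base composition and gene families had no alternative. No paired analysis was possible because the groups held 1 library apiece. Depth was unknown, so a window absent from a list cannot be told apart from one ranked after 1000 or below the limit of detection, and how strongly a window was enriched was not measured here.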
